A study of Mus musculus with 18 samples.

Results

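The livers of male ICR mice, an outbred stock, fed a high-fat diet and given the gut microbiota of control mice (Con-FMT) were set against those of mice on the same diet alone (HFD). It took in 6 of the 18 livers in the deposited table, 3 of each group, and the question was what differed with the transfer itself, from donors that had received no oligosaccharide. Of the 19057 gene lines 10507 were taken, those that reached 1 RPKM in 3 or more of the 18 livers. RPKM, the reads of a gene scaled to its transcript length and to the mapped reads of the library, is meant to make levels comparable between genes and livers. No further scaling between livers was applied in the main fit.

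All mice were 10 weeks old by their labels. The high-fat diet was common to both groups, began after weaning and ran to the end. Con-FMT mice were dosed by mouth with small-intestinal luminal content pooled from control donors, over a stretch of days that ended before the livers were taken, whereas HFD mice received saline. Because donor content was pooled, the recipients of a group shared 1 source of microbiota. The further groups used below for orientation were Con, on a regular diet with saline, and A10-FMT, on the high-fat diet with microbiota of donors dosed with alginate oligosaccharide (AOS) at 10 mg/kg. The AOS and HFD+AOS livers, mice given the oligosaccharide itself, only entered the choice of genes and the estimate of the spread. The hour at which each liver was taken is not given in the sources used here. The labels number the livers of a group but do not tie them to cages or litters, so that the p-values measure the spread between these samples.

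The liver receives the blood of the gut through the portal vein, and with it nutrients, bile acids and bacterial products. Hepatocytes, the parenchymal cells, oxidise and store lipid, make bile acids and plasma proteins, and clear foreign compounds through cytochromes P450 and conjugating enzymes. Many of these genes also follow the hour of the day. The activators Clock, Npas2 and Arntl (Bmal1) drive their own repressors Per, Cry and Nr1d (Rev-erb) and the PAR bZIP factors Dbp, Tef and Hlf, which in turn act on genes of metabolism, and the activator and repressor sides of this loop peak at opposite hours.

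The 6 livers were alike in the total and composition of their values. RPKM is already scaled to mapped reads, so that its sum does not measure the size of a library. Their RPKM summed to 692303 to 743079, with 14512 to 14827 genes detected at more than 0. The top 10 genes by level held 30.7% to 37.2% of the total. The relative worth of 1 read, estimated over 75 sparsely read genes, came to 1.00 in each of the 6 livers. That estimate kept only values close to the smallest of each gene, so that it could not show large differences in depth. The table gives no read numbers, so that the absolute depth, and with it the counting error of a low value, is unknown. Markers of hepatocytes were high in every liver, with a summed level of the 14 markers of 60882 to 71553 RPKM in HFD and 70568 to 72309 RPKM in Con-FMT. Of 16 pancreas and gut markers 1 passed the filter, and 13 were at 0 in all 3 HFD livers and 6 in all 3 Con-FMT livers. Con liver 3 lay between Con livers 1 and 2 for 98.0% of the genes that differed at least 2-fold between those livers, and AOS liver 3 did the same for 96.5%, against 58.1% to 76.8% for any HFD or Con-FMT liver. The counts of genes called in the contrasts with Con, and in that between the transplants, are therefore also given without these livers. Among the HFD livers, liver 1 lay farthest from the others, with 148 genes at least 1 log2 unit from the mean of livers 2 and 3, against 81 for liver 2 and 93 for liver 3, and 69 to 74 for the Con-FMT livers.

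Between Con-FMT and HFD 1 gene passed the test, Ablim3, which was lower with the transplant. That is 0.00952% of the genes tested (limma, adjusted p under 0.05). Fold changes were above 0 for 49.5% of all genes, and their median was 0.00 on the log2(RPKM + 1) scale used throughout, on which the changes of genes of low level are understated. At an unadjusted p under 0.05 there were 408 genes higher (3.88%) and 289 lower (2.75%) in Con-FMT, and 42 genes differed by at least 1 log2 unit. Without Con liver 3 and AOS liver 3 the counts at that p fell to 322 higher (3.06%) and 224 lower (2.13%). With only the groups compared in the fit they were 330 (3.14%) and 220 (2.09%). Shares of all genes given below are those of the fit to all 18 livers unless stated. The groups did not overlap for 630 genes higher (6.0%) and 429 lower (4.08%). The median half-width of a gene's 95% interval was 0.23 log2 units, so that 96.7% of the genes had an interval inside ±1 log2 unit and 82.3% inside ±0.5. The values of the other genes named below are therefore descriptions of 3 livers against 3 that did not pass the test across all genes, unless a sentence says otherwise.

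**Figure D1:**
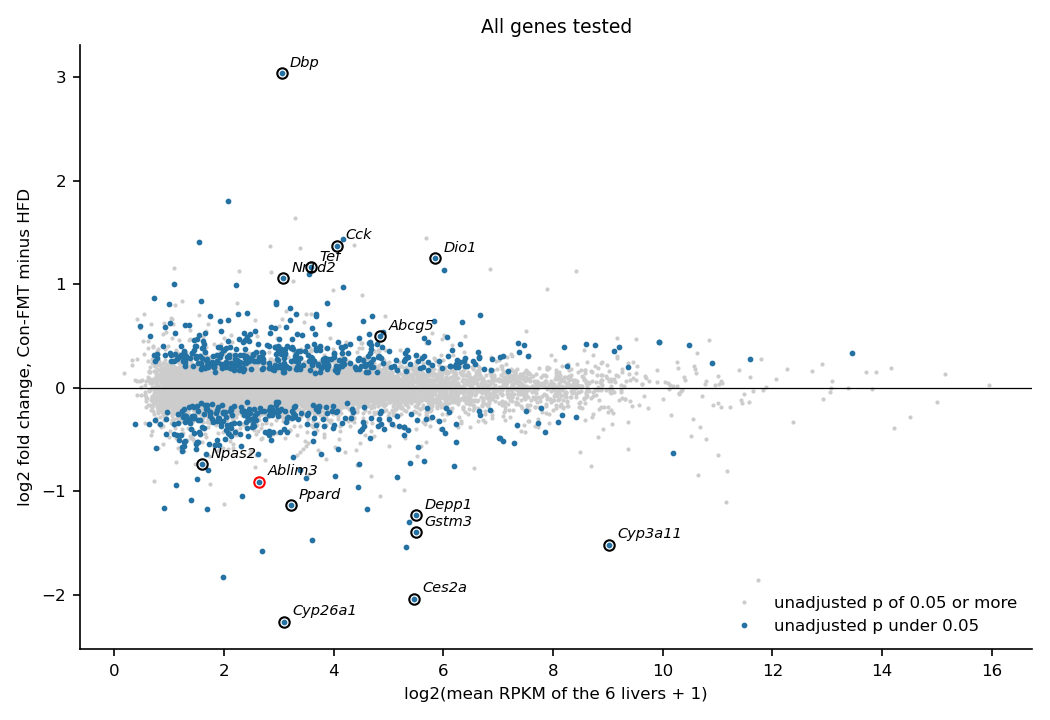
Log2 fold change of Con-FMT minus HFD (y axis) against the mean level of the 6 livers, log2(RPKM + 1) (x axis), for the 10507 genes tested. Blue points are the 697 genes at an unadjusted p under 0.05, circles mark genes named in the text, and the red circle is Ablim3, the 1 gene past an adjusted p of 0.05, at -0.91.

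Ablim3 encodes an actin-binding LIM protein that links actin filaments to other proteins. Its level was 6.66, 7.18 and 7.66 RPKM in the HFD livers and 3.23, 3.31 and 3.52 RPKM in the Con-FMT livers. The difference was many times the spread inside either group. Ablim3 fell by 0.91 log2 units (SE 0.10, 95% interval -1.12 to -0.69, limma adjusted p = 0.0017), and it passed the test in each of the 11 refits of this comparison for which its value was recomputed, with adjusted p between 0.0011 and 0.040. The Con livers held 4.71, 5.53 and 5.08 RPKM and the A10-FMT livers 4.39, 5.13 and 3.75 RPKM, both between HFD and Con-FMT. Against Con the Con-FMT livers were lower too (-0.49, adjusted p = 0.014), though not without Con-FMT liver 1 or Con liver 3 (adjusted p of up to 0.082), while A10-FMT and Con-FMT did not pass the test of their difference (0.31, adjusted p = 0.14). Its relative Ablim1 had 3.33, 4.79 and 4.81 RPKM in HFD and 3.48, 3.9 and 3.17 RPKM in Con-FMT, which overlapped.

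Other genes of the cytoskeleton stood mostly on the same side. Of 30 actin-binding and cytoskeletal genes tested, a list that includes Ablim3 itself, 27 had a fold change below 0. At an unadjusted p under 0.05, 9 were lower, Ablim3 among them, and 1 higher, against 2.75% and 3.88% of all genes. The list's median was -0.22. Krt8, a keratin of hepatocytes and bile duct cells, had 137, 193 and 147 RPKM in HFD and 95.6, 136 and 101 RPKM in Con-FMT. The groups did not overlap, although HFD liver 1 and Con-FMT liver 2 met almost exactly (-0.52 ± 0.14 SE, adjusted p = 0.49). Its partner Krt18 had 155, 218 and 172 RPKM against 120.2, 171 and 133 RPKM, with an overlap. Non-muscle myosin Myh9 had 18.99, 22.4 and 21.1 RPKM against 16.1, 16.9 and 17.4 RPKM, without overlap, and Actb, the cytoplasmic actin, 336, 321 and 280.3 RPKM against 235, 282 and 265 RPKM, with one. Srf, a transcription factor of actin genes, lay the other way, at 3.66, 3.71 and 4.01 RPKM in HFD and 4.22, 4.62 and 4.22 RPKM in Con-FMT. Without HFD liver 1 the number of list members lower at an unadjusted p under 0.05 went from 9 to 16, while that share of all genes went from 2.75% to 6.53%. In whole tissue, fewer cells of a type and less RNA per cell cannot be told apart. The 24 stellate cell and matrix genes, of which 20 were tested and 17 lay below 0 (median -0.14), summed to 175 to 199.6 RPKM in HFD and 147 to 199 RPKM in Con-FMT. Their part in the cytoskeletal values was not tested.

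**Figure D2:**
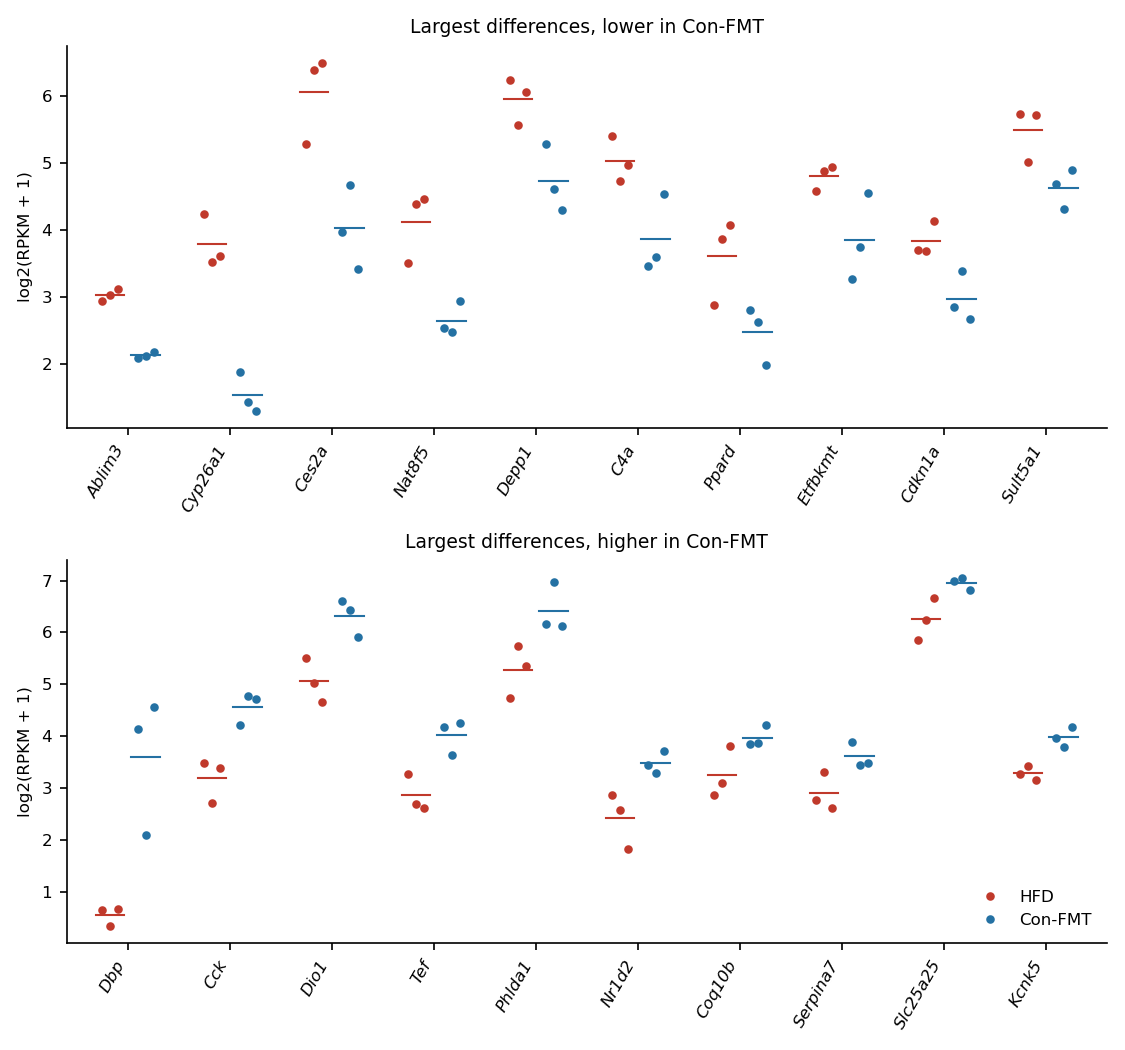
Levels in the 3 HFD (red) and 3 Con-FMT (blue) livers of the 10 genes with the largest differences in each direction among those with non-overlapping groups, an unadjusted p under 0.05 and a mean of at least 5 RPKM in either group. The y axis is log2(RPKM + 1), each point is a liver and each bar a group mean. The Ablim3 points of a group almost coincide, while Dbp spans from 3.24 to 22.6 RPKM among the Con-FMT livers.

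Of the 37 gene lists examined, those of the clock had the highest and the lowest median. All 14 tested genes of the repressor and PAR bZIP side had a fold change above 0 in Con-FMT, with a median of 0.62, 8 were higher at an unadjusted p under 0.05 and 7 did not overlap between groups, against 3.88% and 6.0% of all genes. The 6 tested genes of the Bmal1 phase all had a fold change below 0, with a median of -0.45. At an unadjusted p under 0.05, 3 of the 6 were lower, against 2.75% of all genes. Cry1, a repressor of the loop, was listed with the 6 and not with the 14. It had a fold change of -0.41 with overlapping groups, so that not every repressor lay above 0. With each of the 6 livers left out in turn the medians stayed between 0.55 and 0.79, and between -0.68 and -0.19.

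Among the repressor side, Dbp (chromosome 7, 45705088 to 45710203 in GENCODE M21, build GRCm38), an activator of the PAR bZIP family, had 0.56, 0.27 and 0.59 RPKM in the HFD livers and 16.5, 3.24 and 22.6 RPKM in the Con-FMT livers. No HFD liver reached 1 RPKM and no Con-FMT liver was below 3, but the Con-FMT livers differed widely among themselves. The log2 fold change was 3.04 ± 0.51 SE, with a limma adjusted p of 0.10, and adjusted p ran from 0.00085 to 0.71 in the refits, where it passed with a pseudocount of 0.1, with the replicate number as a block and without Con-FMT liver 2, its lowest. Dbp also passed with sample quality weights, whose estimate did not converge. Tef, of the same family, had 8.68, 5.42 and 5.12 RPKM against 16.98, 11.5 and 18.1 RPKM, and Hlf 6.5, 5.26 and 6.6 RPKM against 8.64, 9 and 7.11 RPKM. Both kept the groups apart, with differences of 1.16 ± 0.26 and 0.38 ± 0.12 on the log2 scale (adjusted p = 0.33 and 0.59).

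Nr1d2 (Rev-erb beta), which represses Arntl, had 6.32, 4.99 and 2.55 RPKM in HFD and 9.87, 8.81 and 12.1 RPKM in Con-FMT, again without overlap (1.06 ± 0.22 SE, adjusted p = 0.33). Its relative Nr1d1 had 21.7, 7.35 and 2.12 RPKM and 22.8, 12.7 and 35.2 RPKM, where HFD liver 1 stood inside the range of Con-FMT. Ciart, a repressor of the Clock and Arntl pair, had 0.05, 0.2 and 0.2 RPKM against 0.96, 0.63 and 1.9 RPKM, and Per3 0.44, 0.38 and 0.38 RPKM against 1.67, 1.29 and 2.64 RPKM. These low levels did not overlap. Bhlhe40, a repressor that competes for the same DNA sites, had 20, 18.3 and 18.4 RPKM in HFD and 29.9, 31.7 and 31.8 RPKM in Con-FMT, tight in both groups. Per1 and Per2, core repressors of the loop, overlapped between groups, with 0.55 ± 0.39 and 0.32 ± 0.31, as did Cry2, Usp2, Wee1 and Bhlhe41, whose fold changes went from 0.11 for Wee1 to 0.25 for Cry2. Wee1 without Con-FMT liver 1 and Bhlhe41 without Con-FMT liver 3 turned below 0.

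On the opposite side, Npas2, a partner of Arntl, had 2.64, 2.65 and 2.95 RPKM in HFD and 1.4, 1.83 and 0.67 RPKM in Con-FMT, with no overlap (-0.74 ± 0.15 SE, adjusted p = 0.33). Nfil3, a repressor that acts on the sites of Dbp, had 26.8, 28.9 and 29.8 RPKM against 20.8, 25.9 and 14.8 RPKM and did not overlap either. Arntl itself had 12.1, 14.6 and 13.2 RPKM against 8.02, 12.97 and 6.94 RPKM, with Con-FMT liver 2 inside the range of HFD. Among the Con-FMT livers, liver 2 was the highest of the 3 for Npas2, Nfil3, Arntl, Cry1 and Clock and the lowest for 9 of the 14 repressor-side genes, Dbp, Tef, Nr1d2, Nr1d1, Ciart, Per3, Per1, Wee1 and Bhlhe41. It was the highest for Hlf, and neither lowest nor highest for Per2, Bhlhe40, Usp2 and Cry2. Clock overlapped between groups, at -0.16 ± 0.14.

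**Figure D3:**
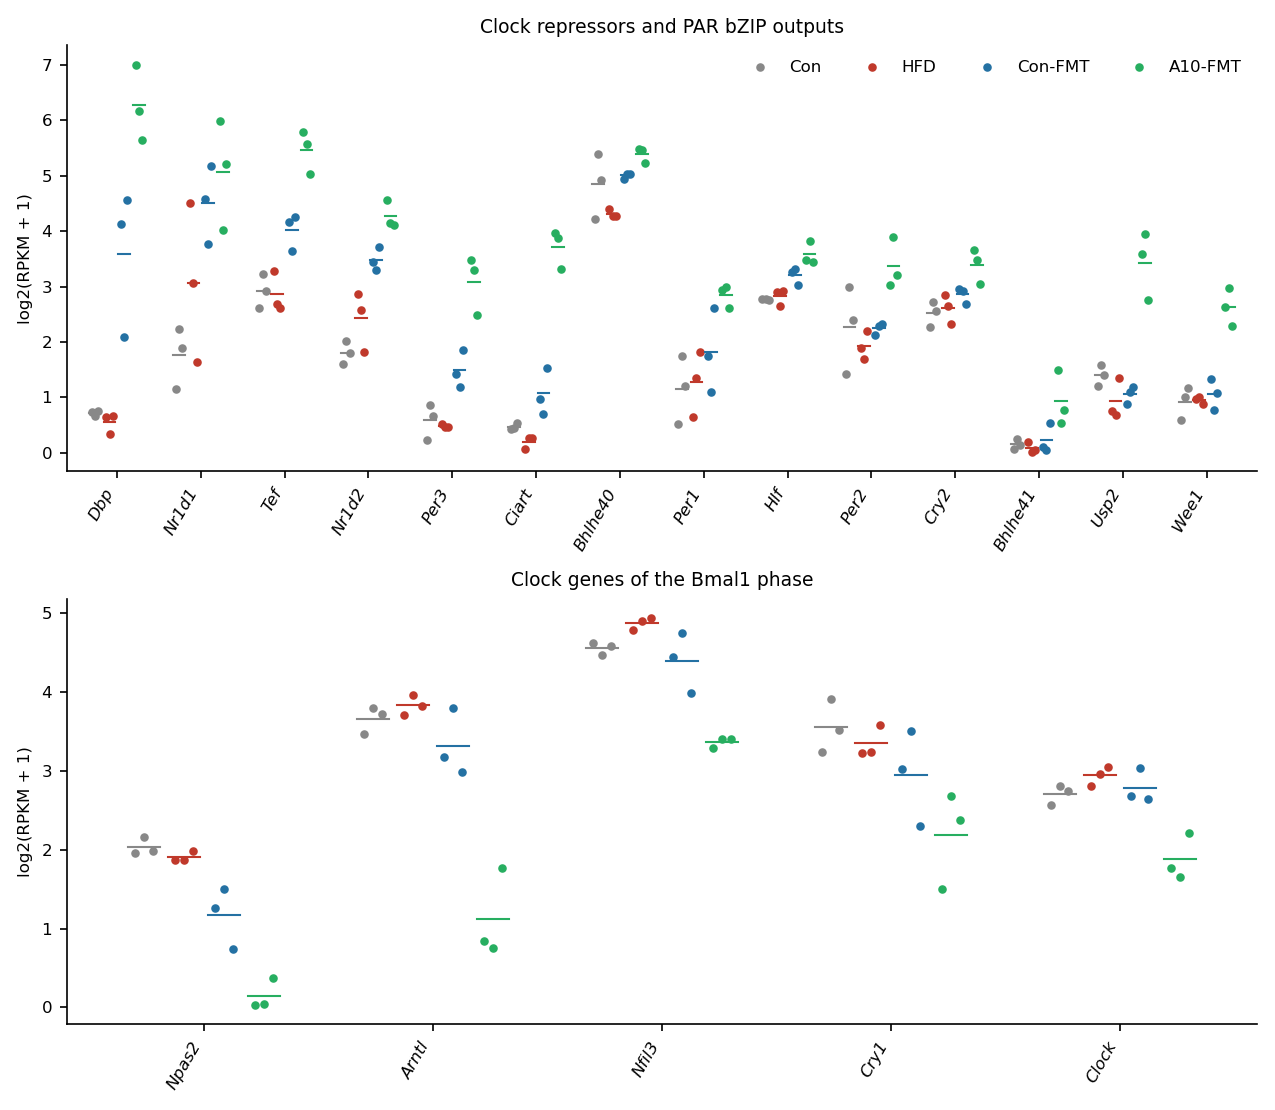
Levels of the 14 tested clock repressors and PAR bZIP genes (top) and of 5 of the 6 tested genes of the Bmal1 phase (bottom) in the 3 Con, 3 HFD, 3 Con-FMT and 3 A10-FMT livers. The y axis is log2(RPKM + 1), each point is a liver and each bar a group mean, and genes are ordered by the size of the Con-FMT minus HFD difference. Con-FMT means lie between those of HFD and A10-FMT for all 14 genes at the top and for Npas2, Arntl, Nfil3, Cry1 and Clock at the bottom.

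Promoters of clock genes are shown because these genes stood together in the comparison. In windows from RefSeq (build GRCm38.p6), 250 bases before to 50 after each start, the E-box CACGTG, the site of the Clock and Arntl pair, was searched on both strands, as were the D-box forms TTATGTAA and TTATGCAA, to which Dbp, Tef, Hlf and Nfil3 bind. Of the 14 tested repressor-side genes 11 had a window, 4 of those held an E-box (Tef, Ciart, Per1 and Bhlhe41) and 2 a D-box (Per3 and Per1). Of the Bmal1-phase genes 5 of 6 had a window, and Cry1 held an E-box. Over all 32851 windows the E-box was in 7.15%, TTATGTAA in 0.938% and TTATGCAA in 0.743%. These shares are per window and per form, whereas the counts above are per gene, with both D-box forms together, and Tef had more than 1 window. The counts and shares are therefore not on the same scale. The windows of Dbp, Nr1d2, Npas2 and Arntl held none of these motifs. The windows of Ciart (chr3:95882179-95882478, minus strand), Tef (chr15:81802423-81802722, plus strand, the first of its windows) and Per3 (chr4:151044616-151044915, minus strand) follow, read in the direction of the gene, with E-boxes in capitals for Ciart and Tef and D-boxes in capitals for Per3.
Ciart: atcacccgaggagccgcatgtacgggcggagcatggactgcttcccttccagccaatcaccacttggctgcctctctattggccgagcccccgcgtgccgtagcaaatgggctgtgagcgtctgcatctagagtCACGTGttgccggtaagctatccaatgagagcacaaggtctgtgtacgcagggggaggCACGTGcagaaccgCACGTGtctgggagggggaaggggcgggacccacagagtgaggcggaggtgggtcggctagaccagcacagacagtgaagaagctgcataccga
Tef: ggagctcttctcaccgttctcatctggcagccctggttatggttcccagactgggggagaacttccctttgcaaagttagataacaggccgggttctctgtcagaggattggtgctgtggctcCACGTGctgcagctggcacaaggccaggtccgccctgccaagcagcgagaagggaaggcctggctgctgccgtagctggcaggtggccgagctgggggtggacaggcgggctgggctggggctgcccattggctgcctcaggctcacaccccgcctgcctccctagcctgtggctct
Per3: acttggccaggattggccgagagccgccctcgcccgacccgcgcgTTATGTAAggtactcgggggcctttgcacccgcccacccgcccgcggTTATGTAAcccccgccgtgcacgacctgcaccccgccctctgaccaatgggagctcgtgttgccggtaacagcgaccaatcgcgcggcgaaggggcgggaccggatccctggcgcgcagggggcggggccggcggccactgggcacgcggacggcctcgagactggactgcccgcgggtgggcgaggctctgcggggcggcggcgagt
The window of Ciart held 3 E-boxes, that of Tef 1, and that of Per3 2 D-boxes.

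A transplant was also given to the A10-FMT mice, and the direct test between these groups asks where the recipients of each microbiota differed. In that test Dbp was higher again in A10-FMT, at 127, 70.8 and 49.2 RPKM (2.68 log2 units, adjusted p = 0.013). Ciart, at 14.6, 13.7 and 8.99 RPKM, rose by 2.65 (adjusted p = 6.8e-06), Tef by 1.44 (adjusted p = 0.0098), Per3 by 1.59 (adjusted p = 0.0024) and Usp2, a deubiquitinase of the clock's output, by 2.37 (adjusted p = 8.4e-05). Lower in A10-FMT were Arntl, at 0.79, 0.69 and 2.41 RPKM (-2.20, adjusted p = 9.4e-05), Npas2, at 0.02, 0.03 and 0.29 RPKM (-1.02, adjusted p = 0.0024), and Nfil3 (-1.03, adjusted p = 0.0025). In all, 6 of the 14 repressor-side genes were called higher in A10-FMT than in Con-FMT and 4 of the 6 Bmal1-phase genes lower, against 0.457% and 1.23% of all genes. Nr1d2 did not pass (0.79, adjusted p = 0.089). Ciart, Per3, Usp2, Arntl, Npas2 and Nfil3 passed without each of the 6 livers in turn, whereas Dbp lost the call without A10-FMT liver 1 or 2, and Tef without A10-FMT liver 1 or 2 or Con-FMT liver 2, with adjusted p of up to 0.23 and 0.10 over the refits. When the fit held the livers of both transplant groups only, Ciart alone of these genes passed. The comparisons of each transplant with HFD share the HFD livers, so that their values only stand side by side. The repressor-side median was 0.62 for Con-FMT and 1.76 for A10-FMT, and the Bmal1-phase median -0.45 and -1.34.

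Cyp26a1 (chromosome 19, 37697798 to 37701536 in GENCODE M21, build GRCm38) encodes the hydroxylase that clears retinoic acid and is itself induced by it. It had 17.9, 10.49 and 11.2 RPKM in the HFD livers and 2.67, 1.7 and 1.45 RPKM in the Con-FMT livers. No Con-FMT liver came near an HFD liver. The log2 fold change was -2.26 ± 0.46 SE, with a limma adjusted p of 0.33 that ran from 0.040 to 0.75 in the refits, and it passed when the fit held the livers of these groups only. Con livers had 34.97, 32.1 and 38.4 RPKM, so that Con-FMT was 3.64 log2 units below Con (adjusted p = 0.0011), and A10-FMT livers had 2.8, 1.19 and 6.53 RPKM, with no call against Con-FMT (0.46, adjusted p = 0.66). Its promoter window (RefSeq, GRCm38.p6, chr19:37697558-37697857, plus strand) is shown because retinoic acid receptors bind direct repeats. It holds the repeat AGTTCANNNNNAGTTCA on the opposite strand, in capitals, which 0.0244% of all windows hold on either strand. No other spelling of a direct repeat was searched, and the spelling searched is the one that this window holds. The share therefore cannot show how unusual a repeat for these receptors is among promoters, and binding was not tested.
Cyp26a1: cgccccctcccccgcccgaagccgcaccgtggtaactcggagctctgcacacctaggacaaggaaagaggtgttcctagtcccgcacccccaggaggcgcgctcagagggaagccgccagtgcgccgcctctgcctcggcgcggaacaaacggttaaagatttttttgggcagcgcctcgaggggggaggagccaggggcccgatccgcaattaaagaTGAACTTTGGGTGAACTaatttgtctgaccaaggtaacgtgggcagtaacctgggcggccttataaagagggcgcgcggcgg

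The other genes of retinoid handling did not stand with Cyp26a1. Of 31 tested, 20 had a fold change above 0, and the median was 0.06. At an unadjusted p under 0.05, 3 were higher and 1, Cyp26a1, lower, against 3.88% and 2.75% of all genes. Rbp4, the plasma carrier of retinol, had 3042, 2615 and 2748 RPKM in HFD and 3327, 3668 and 3202 RPKM in Con-FMT, without overlap (0.28 ± 0.11 SE, adjusted p = 0.68). Rdh10, which oxidises retinol to retinal, had 8.42, 8.33 and 8.5 RPKM against 9.69, 10 and 9.41 RPKM, and Retsat, a retinol saturase, 181, 153 and 164 RPKM against 184, 249 and 191 RPKM, both without overlap. Cyp26b1, a related hydroxylase, overlapped, at 3.28, 0.15 and 0.95 RPKM and 0.44, 0.49 and 0.66 RPKM. The retinoic acid receptor genes Rara, Rarb and Rarg differed by 0.21 ± 0.14, 0.04 ± 0.18 and -0.18 ± 0.10.

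Most genes of fatty acid oxidation had small fold changes above 0 in Con-FMT. Of 38 tested targets of PPAR alpha, the nuclear receptor that drives oxidation and ketogenesis, 28 had a fold change above 0, 10 were higher and 2 lower at an unadjusted p under 0.05, against 3.88% and 2.75% of all genes, and the median was 0.17 (0.13 to 0.20 with 1 liver left out). Eci2, an isomerase for unsaturated fatty acids, had 92.8, 86.6 and 79 RPKM in HFD and 109, 109 and 111 RPKM in Con-FMT, without overlap (0.35 ± 0.09 SE, adjusted p = 0.49). Ppara itself had 23.4, 21.3 and 17.2 RPKM against 27.6, 30.9 and 26.1 RPKM, also without overlap. Cpt1a, which lets fatty acids into mitochondria, had 75.6, 51.96 and 56.9 RPKM against 85.7, 73.5 and 76.7 RPKM, where HFD liver 1 stood with the Con-FMT livers. Further targets of the same receptor lay below 0, among them Pdk4, a kinase that shuts pyruvate dehydrogenase, at 2.18, 3.64 and 3.65 RPKM in HFD and 1.47, 1.88 and 0.84 RPKM in Con-FMT (-0.80 ± 0.23 SE, adjusted p = 0.53), and Angptl4, an inhibitor of lipoprotein lipase, at 39.4, 44.2 and 36.5 RPKM and 26.8, 29.6 and 36.5 RPKM. Cyp4a10 and Cyp4a14, hydroxylases of fatty acids, were dominated by their spread, with 12.7, 10.6 and 17.1 RPKM of Cyp4a14 in HFD and 2.18, 29.6 and 13.9 RPKM in Con-FMT. Fgf21, a hormone of fasting, had 5.64, 2.46 and 5.15 RPKM and 5.11, 7.82 and 3.22 RPKM, with an overlap.

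Sterol transporters lay on the same side. All 11 tested genes of sterol efflux and LXR targets had a fold change above 0, against 49.5% of all genes, 3 were higher at an unadjusted p under 0.05, against 3.88%, and the median was 0.17. Abcg5, a part of the transporter that moves sterols into bile, had 23.1, 21.6 and 23.5 RPKM in HFD and 40.2, 27.5 and 31.1 RPKM in Con-FMT, without overlap (0.50 ± 0.13 SE, adjusted p = 0.49). Its partner Abcg8, which shares the promoter region, had 18.1, 13.2 and 15.8 RPKM against 27.2, 17.2 and 20.5 RPKM, where HFD liver 1 exceeded Con-FMT liver 2. Scarb1, the receptor for high-density lipoprotein, had 86.8, 60.01 and 44.3 RPKM against 104, 97.2 and 86.5 RPKM, with HFD liver 1 again at the level of Con-FMT. In the direct test Abcg5 was higher in A10-FMT than in Con-FMT, by 0.57 (adjusted p = 0.043), a call that did not hold without A10-FMT liver 1 or 2 or Con-FMT liver 2 or 3 (adjusted p of up to 0.26).

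Cholesterol synthesis gave 0 of 26 genes called in limma, and 0 at an unadjusted p under 0.05 in either direction, with a median of -0.09 that lay between -0.22 and 0.01 with 1 liver left out. Fatty acid synthesis had 16 of 18 genes below 0, with a median of -0.09 (-0.37 to 0.06 with 1 liver left out). At an unadjusted p under 0.05, 1 gene was higher, against 3.88% of all genes. That gene was Srebf1, the transcription factor of lipogenesis, at 42.6, 44.4 and 44.2 RPKM in HFD and 65.98, 60.7 and 53.4 RPKM in Con-FMT. Fasn, the fatty acid synthase, overlapped, at -0.05 ± 0.42, and the desaturase Scd1 had 19.2, 177 and 215 RPKM and 163, 26.7 and 99.2 RPKM, so that no statement on its direction can be drawn from these livers. Of 17 genes of triglyceride assembly and lipid droplets 2 were higher at an unadjusted p under 0.05, against 3.88% of all genes. They were Dgat2, which forms triglyceride (165, 125 and 151 RPKM against 189, 180.5 and 188 RPKM), and Mgll, which cleaves monoglyceride (46.5, 48.6 and 46.02 RPKM against 56.6, 59.1 and 53.2 RPKM). Of 26 genes of fatty acid uptake and lipoproteins 19 lay above 0. At that threshold 2 were higher and 1 lower, against 3.88% and 2.75% of all genes. Slc27a2, a fatty acid transporter and ligase, had 436, 319.6 and 370 RPKM against 529.7, 492 and 472 RPKM (0.42 ± 0.11 SE, adjusted p = 0.49), and Apoa1, the main protein of high-density lipoprotein, 11280.4, 8619 and 9909 RPKM against 13002, 11830 and 12657 RPKM. Neither overlapped between groups.

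Bile acid genes differed little. Of 28 tested, 1 was higher and 1 lower at an unadjusted p under 0.05, against 3.88% and 2.75% of all genes. The median was 0.04. Cyp7a1, the rate-limiting enzyme of bile acid synthesis, had 8.63, 20.3 and 66.7 RPKM in HFD and 18.7, 19.7 and 18.9 RPKM in Con-FMT. The Con-FMT livers were almost equal and the HFD livers lay on both sides of them (-0.26 ± 0.56 SE). Cyp8b1, which sets the share of cholic acid, had 313, 203 and 206 RPKM against 270.2, 331 and 255 RPKM. Nr1h4 (FXR), the bile acid receptor, had 63.4, 73.4 and 58.6 RPKM against 56.6, 64.3 and 60.7 RPKM, and its 95% interval for the difference was -0.32 to 0.12. Nr0b2, a repressor induced by that receptor, and Abcb11, the bile salt export pump, differed by -0.22 ± 0.26 and -0.15 ± 0.19. Slc51b, a subunit of the basolateral bile acid exporter, had 0.56, 3.38 and 4.45 RPKM against 0.92, 1.31 and 0.36 RPKM, with HFD liver 1 inside the range of Con-FMT. The gene higher at that threshold was Nr5a2, an activator of bile acid synthesis, at 10.01, 13.1 and 12.2 RPKM against 14.6, 15.1 and 13.01 RPKM.

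Enzymes that clear foreign compounds lay mostly below 0. Of 33 tested cytochromes P450 of xenobiotic metabolism 19 lay below 0 and 14 above, 5 were lower and 0 higher at an unadjusted p under 0.05 (median -0.11). Of 47 conjugating and antioxidant enzymes 34 lay below 0, 9 were lower and 2 higher, against 2.75% and 3.88% of all genes (median -0.18). Cyp1a2, a P450 of aromatic amines, had 262, 321 and 322 RPKM in HFD and 258, 208 and 253 RPKM in Con-FMT, just without overlap (-0.33 ± 0.10 SE, adjusted p = 0.58). Ugt2b1, a glucuronosyltransferase, had 231, 296 and 264 RPKM against 191, 176 and 218 RPKM, without overlap. Reads of near-identical genes could have been counted for more than 1 member of the Cyp, Ugt, Gst and Mup families, so that single members are uncertain.

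In many of these genes HFD liver 1 parted from HFD livers 2 and 3. Cyp3a11 (chromosome 5, 145854426 to 145879964), the main drug-metabolising P450 of its family, had 235, 1033 and 1134 RPKM in HFD, 313, 262 and 143 RPKM in Con-FMT and 1709.6, 2585 and 2082 RPKM in Con. HFD liver 1 lay inside the Con-FMT range, the other HFD livers far above it and the Con livers higher still. Its relative Cyp3a44 had 0.32, 7.98 and 8.37 RPKM against 0.55, 0.6 and 0.00 RPKM, Cyp3a59 3.83, 19.2 and 21.1 RPKM against 9.08, 6.97 and 3.76 RPKM and the glutathione transferase Gsta1 0.59, 3.89 and 3.7 RPKM against 0.51, 0.49 and 0.72 RPKM, in each case with HFD liver 1 among the Con-FMT livers. Gstm3, another glutathione transferase, had 32.4, 104 and 61.1 RPKM against 19.7, 16.2 and 32.6 RPKM, where HFD liver 1 and Con-FMT liver 3 nearly met. For Ip6k2, an inositol phosphate kinase, HFD liver 1 was again among the Con-FMT livers, with 9.51, 18.98 and 19.5 RPKM in HFD, 9.33, 9.84 and 9.1 RPKM in Con-FMT and 9.92, 10.96 and 11.03 RPKM in Con. HFD liver 1 lay below every Con-FMT liver for Htatip2 (12.5, 27.2 and 22.7 RPKM against 13.9, 17.2 and 16.1 RPKM) and Il17rb, an interleukin receptor (2.04, 5 and 4.48 RPKM against 2.09, 2.17 and 2.65 RPKM). Without HFD liver 1 the test called 13 genes, 2 higher and 11 lower in Con-FMT. Ablim3, Cyp3a44, Cyp3a59, Gsta1, Ip6k2, Htatip2, Il17rb and Ppard were among those lower and Nr1d2 and Rgs12 were those higher, and 8 P450 and 18 conjugating enzymes were then lower at an unadjusted p under 0.05, against 6.53% of all genes. The labels give nothing that sets this liver apart, and what made it differ was not tested.

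**Figure D4:**
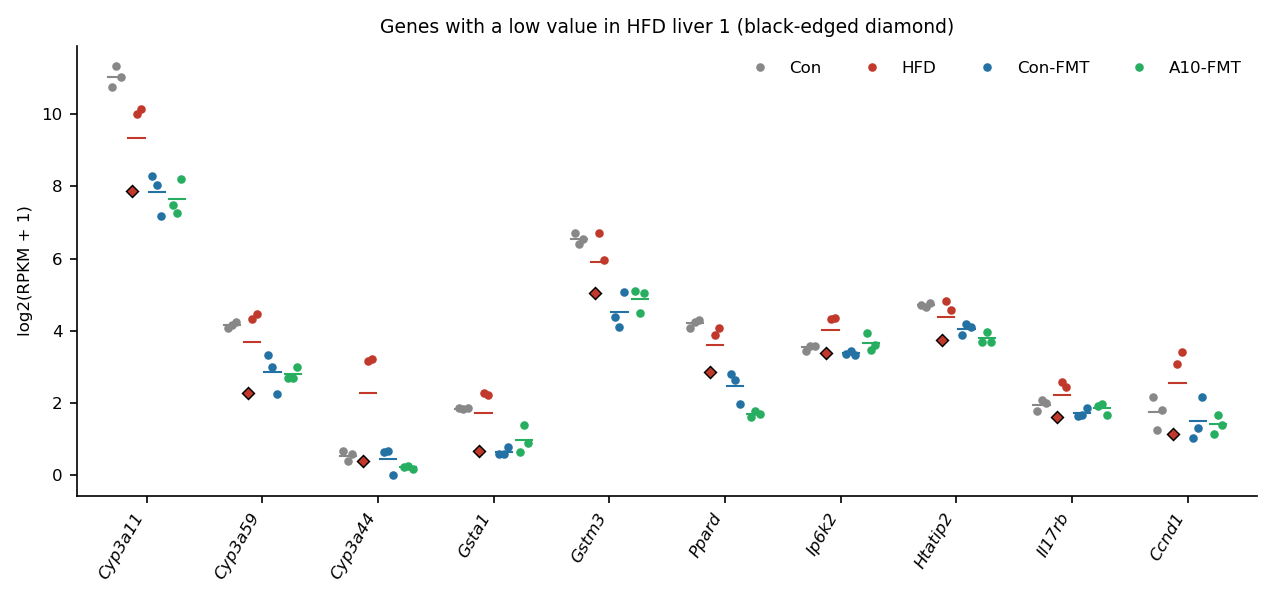
Levels of 10 genes with a low value in HFD liver 1, in the 3 Con, 3 HFD, 3 Con-FMT and 3 A10-FMT livers. The genes were chosen after their values were seen. The y axis is log2(RPKM + 1), each point is a liver, bars are group means, and the black-edged diamond is HFD liver 1, which lies closer to the Con-FMT mean than to HFD livers 2 and 3 for each gene.

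Ppard, a nuclear receptor of lipid metabolism, was 1 of those genes. On chromosome 17 (28232700 to 28301474), it had 6.31, 13.6 and 15.8 RPKM in HFD, 5.97, 5.17 and 2.95 RPKM in Con-FMT, 2.05, 2.42 and 2.24 RPKM in A10-FMT and 15.97, 18.1 and 18.7 RPKM in Con. The HFD and Con-FMT livers did not overlap, though HFD liver 1 and Con-FMT liver 1 nearly met (-1.13 ± 0.25 SE, adjusted p = 0.33). Against Con, Con-FMT was lower by 1.74 log2 units (adjusted p = 0.0019).

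The other genes of the largest differences came from many processes. Lower in Con-FMT were Ces2a, a carboxylesterase (37.8, 83.02 and 89.2 RPKM in HFD, 14.7, 24.6 and 9.68 RPKM in Con-FMT), Nat8f5, an acetyltransferase-like gene (10.3, 19.9 and 21.1 RPKM against 4.79, 4.53 and 6.62 RPKM), and Depp1, a regulator of autophagy (74.7, 46.4 and 65.8 RPKM against 37.8, 23.4 and 18.7 RPKM). C4a, a complement C4 paralog, had 41.4, 25.4 and 30.4 RPKM against 10.03, 11.04 and 22.2 RPKM, Etfbkmt, a methyltransferase of a mitochondrial flavoprotein, 23.04, 28.6 and 29.8 RPKM against 8.64, 12.4 and 22.4 RPKM, and Sult5a1, a sulfotransferase, 52.1, 31.5 and 51.4 RPKM against 24.7, 18.9 and 28.7 RPKM. Their log2 fold changes ran from -2.03 for Ces2a to -0.86 for Sult5a1, and the groups did not overlap, as the rule for naming them required. Cdkn1a (p21), an inhibitor of the cell cycle, had 11.99, 11.8 and 16.5 RPKM in HFD, 6.18, 9.49 and 5.38 RPKM in Con-FMT and 0.41, 0.27 and 2.18 RPKM in A10-FMT, where the direct test between the transplants called it lower (-2.13, adjusted p = 0.0013, but 0.10 when the fit held these groups only).

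Higher in Con-FMT were Cck, a gut and brain peptide gene (10.2, 5.51 and 9.44 RPKM in HFD, 17.5, 26.4 and 25.2 RPKM in Con-FMT), and Dio1, the deiodinase that activates thyroid hormone (44.5, 31.6 and 24.2 RPKM against 96.5, 85.4 and 58.8 RPKM). Cck was at 1.35, 3.39 and 2.16 RPKM in Con, so that Con-FMT was higher by 2.89 log2 units there (adjusted p = 0.0011). Serpina7, the thyroxine-binding globulin, had 5.85, 8.92 and 5.1 RPKM against 13.9, 9.89 and 10.2 RPKM, Slc25a25, a mitochondrial carrier of ATP and magnesium, 56.97, 74.7 and 100.5 RPKM against 126, 132 and 112 RPKM, and Kcnk5, a potassium channel, 8.68, 9.77 and 7.86 RPKM against 14.5, 12.8 and 17.1 RPKM. Coq10b, of coenzyme Q function, had 6.29, 7.54 and 12.98 RPKM against 13.3, 13.5 and 17.6 RPKM and was higher still in A10-FMT, at 31.9, 32.7 and 24.2 RPKM (0.95, adjusted p = 0.034, up to 0.16 with A10-FMT liver 1 or 2 or Con-FMT liver 1 or 2 left out and in the other refits). Phlda1, a gene induced by growth factors and stress, had 25.7, 52.2 and 39.6 RPKM against 70.4, 124 and 68.3 RPKM. Fold changes of this group, Dbp, Tef and Nr1d2 aside, ran from 0.69 to 1.37.

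Interferon-stimulated genes lay on the lower side almost throughout. Of 40 tested, 39 had a fold change below 0, with a median of -0.27 (-0.36 to -0.16 with 1 liver left out), 3 were lower at an unadjusted p under 0.05 and 9 were lower without overlap, against 2.75% and 4.08% of all genes. Xaf1 had 7.48, 8.21 and 4.02 RPKM in HFD and 3.62, 3.64 and 3.87 RPKM in Con-FMT, Oasl1 9.52, 6.31 and 5.93 RPKM against 5.3, 4.14 and 5.34 RPKM, and Dhx58, a regulator of viral RNA sensing, 6.81, 7.76 and 5.51 RPKM against 5.24, 4.06 and 4.86 RPKM. These are small differences between low levels, for Xaf1 -0.64 ± 0.25 SE (adjusted p = 0.69). Irf7, a transcription factor of the interferon response, had 16.1, 18.8 and 19.99 RPKM against 15.03, 8.46 and 13.3 RPKM, also without overlap. Cxcl9 was the 1 gene above 0, at 0.30 ± 0.19. In the same livers the 17 antigen presentation genes had a median of 0.04, with 0 at an unadjusted p under 0.05, and the 24 Kupffer cell and macrophage markers, of which 19 were tested and 14 lay below 0, summed to 152 to 303 RPKM in HFD and 174 to 204 RPKM in Con-FMT. Lymphocyte and granulocyte markers were near 0, with 6 of 24 tested and sums of 7.84 to 9.24 RPKM and 8.06 to 11.4 RPKM. The part of these cells in the interferon values was not tested.

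**Figure D5:**
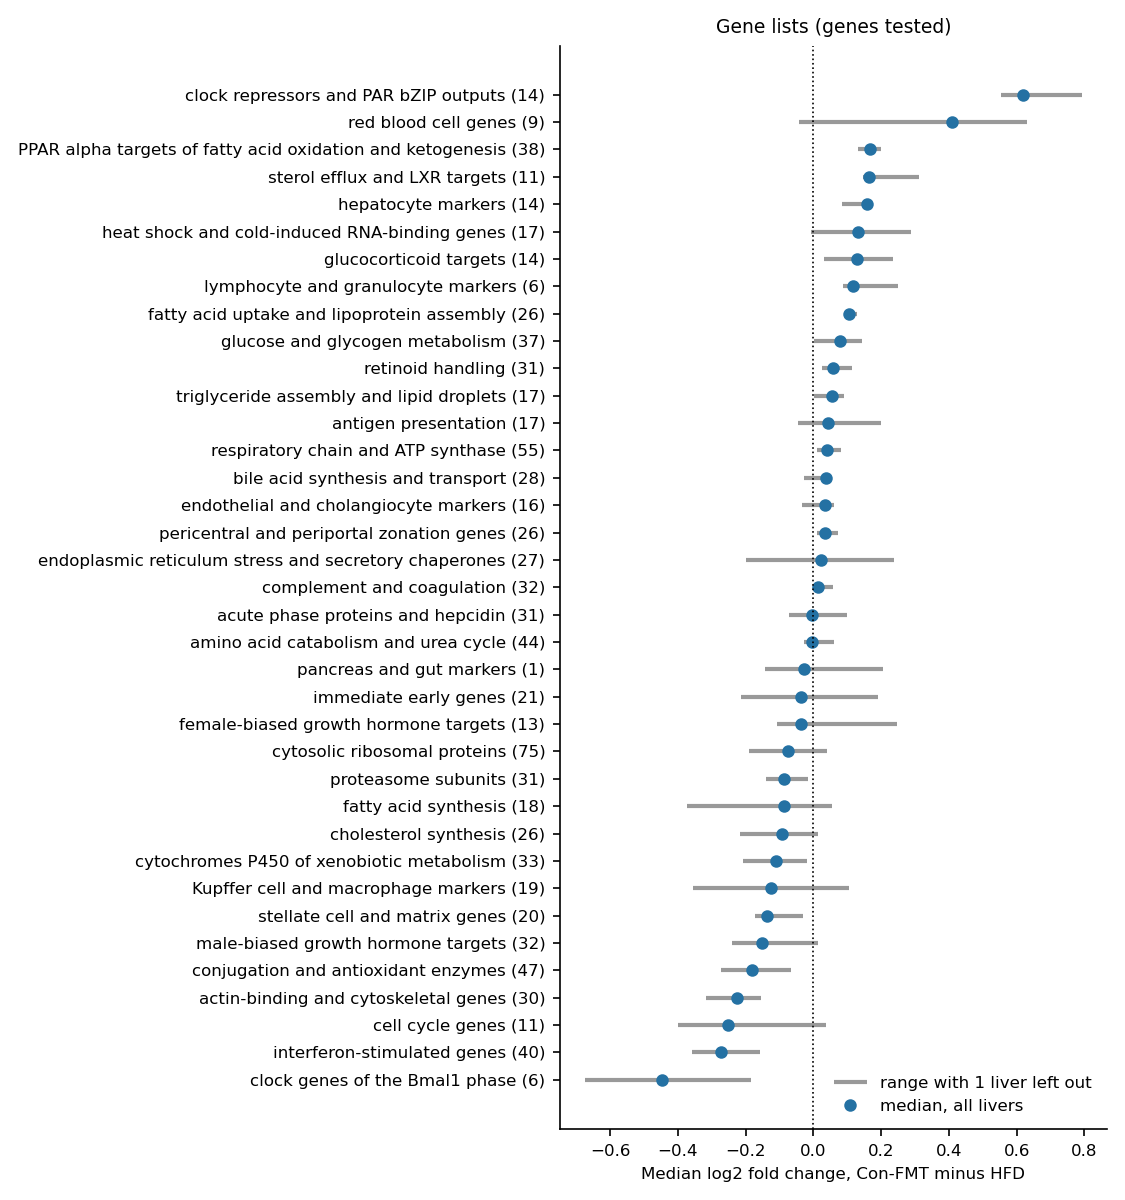
Median log2 fold change of Con-FMT minus HFD (x axis) for each of the 37 gene lists (y axis, number of genes tested in brackets). Blue points are the medians with all livers, and grey bars give the range of the medians with each of the 6 livers left out in turn. The clock lists lie at both ends, at 0.62 and -0.45, and the bars of the Kupffer cell, cell cycle and red blood cell lists cross 0, among others.

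Other lists stayed near the level of all genes or turned with a single liver. Of 31 acute phase and hepcidin genes 1, Hamp2, was lower at an unadjusted p under 0.05 (42.6, 90.5 and 33.7 RPKM in HFD, 51.8, 16.3 and 9.22 RPKM in Con-FMT, with an overlap), and the serum amyloid gene Saa1 overlapped at 100.4, 156 and 43.2 RPKM and 93.9, 145 and 64.8 RPKM. Complement and coagulation gave 0 of 32 genes called in limma and 0 at an unadjusted p under 0.05 (median 0.01). Of 37 genes of glucose and glycogen 2 were higher and 2 lower at that threshold, against 3.88% and 2.75% of all genes. Igfbp1, an insulin-repressed binding protein, had 11.2, 42.2 and 139 RPKM in HFD and 10.53, 21.8 and 10.3 RPKM in Con-FMT, and Ugp2, which makes the sugar donor of glycogen, 79.3, 85.4 and 85 RPKM against 114, 99.9 and 87.6 RPKM. G6pc and Pck1, enzymes of glucose release, overlapped, at 0.09 ± 0.35 and 0.31 ± 0.23. Of 44 amino acid genes 3 were higher and 1 lower, against 3.88% and 2.75% of all genes. They were led by Cdo1, which oxidises cysteine (899.6, 680.5 and 899 RPKM and 1279.8, 1144 and 937 RPKM). Ddit3 and Atf4, transcription factors of the stress response, were the 2 of 27 endoplasmic reticulum stress genes at an unadjusted p under 0.05. Both were higher, against 3.88% of all genes, at 0.52 ± 0.21 and 0.27 ± 0.13, with Con-FMT liver 2 the highest for both.

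The lists of general cell functions were even flatter. Respiratory chain and ATP synthase had 42 of 55 genes above 0 with a median of 0.04, proteasome subunits 28 of 31 below 0 with a median of -0.09, and cytosolic ribosomal proteins 63 of 75 below 0 with a median of -0.07. In limma 0 genes of these lists were called, and 1, Rpl29, had an unadjusted p under 0.05. Without HFD liver 1 there were 14 ribosomal and 8 proteasome genes lower at that threshold, of 686 in all, and the ribosomal median ran from -0.19 to 0.04 over the livers left out. Of 11 cell cycle genes 10 lay below 0. At an unadjusted p under 0.05, 1 was lower with all livers and 7 without HFD liver 1, against 2.75% and 6.53% of all genes. The 1 lower with all livers was Ccnd1, a cyclin of the G1 phase, at 1.21, 7.46 and 9.62 RPKM in HFD and 1.04, 1.47 and 3.51 RPKM in Con-FMT. Among growth hormone targets, Cyp4a12b, a male-biased P450, had 14.4, 4.77 and 6.2 RPKM against 1.24, 0.66 and 5.54 RPKM. Of 32 male-biased genes 3 were lower at that threshold and 0 higher, against 2.75% and 3.88% of all genes. Glucocorticoid targets gave 1 of 14 (Zbtb16, 1.84, 1.69 and 2.01 RPKM against 0.86, 1.23 and 0.86 RPKM, lower) and zonation genes 2 of 26 lower, against 2.75% of all genes. Heat shock and cold-induced genes gave 0 of 17, with a median of 0.13. Endothelial and cholangiocyte markers gave 2 higher and 1 lower of 16, against 3.88% and 2.75% of all genes. The lower was Sox9, a factor of bile duct cells (3.56, 2.65 and 2.53 RPKM against 1.54, 2.56 and 1.09 RPKM).

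Spread between livers was of the same order in both groups. The median SD of log2(RPKM + 1) over the genes was 0.13 in HFD and 0.12 in Con-FMT, and 56 and 39 genes had an SD of at least 1. Across genes, the log2 levels of any 2 livers correlated at r = 0.984 to 0.990 within HFD, 0.989 to 0.991 within Con-FMT and 0.987 to 0.990 between them, over 10507 genes that are not independent replicates. Among the 10 most variable genes of Con-FMT were the immediate early genes Egr1 (0.9, 60.4 and 3.58 RPKM in Con-FMT, 15.7, 2.66 and 39.98 RPKM in HFD) and Fos (0.51, 24.9 and 1.39 RPKM in Con-FMT, 1.23, 0.72 and 28.6 RPKM in HFD), which were high in Con-FMT liver 2 and HFD liver 3. Egr1, Fos and Mup14, a major urinary protein gene, were among the 10 most variable genes of both groups. C1rb, a complement protease gene, was at 2.29, 42.5 and 3.25 RPKM in Con-FMT and 1.61, 1.95 and 1.62 RPKM in HFD, again high in Con-FMT liver 2, and Kap, an androgen-regulated gene, at 0.4, 2.99 and 29.3 RPKM and 2.84, 0.82 and 0.4 RPKM. In HFD the most variable genes included Mup12, of the same family as Mup14, with 14463, 1725 and 1546 RPKM against 766, 912 and 1164 RPKM in Con-FMT, and Gstp3, a glutathione transferase, with 27.3, 328 and 559 RPKM against 383, 372 and 381 RPKM. The beta-globin Hbb-bs had 524, 198 and 12.6 RPKM in HFD and 129.7, 276 and 282 RPKM in Con-FMT. The 11 red blood cell genes, of which 9 were tested and 8 lay above 0 (median 0.41), summed to 1281 to 3354 RPKM in HFD and 1888 to 2683 RPKM in Con-FMT. These sums overlapped between groups.

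Tested directly, A10-FMT and Con-FMT differed in 177 genes, 48 higher (0.457%) and 129 lower (1.23%) in A10-FMT (limma, adjusted p under 0.05). The count depended on the livers in the fit, with 82 genes without Con liver 3 and AOS liver 3 and 4 when the fit held these groups only. It was 66 without A10-FMT liver 1, 58 without A10-FMT liver 2, 564 without A10-FMT liver 3 and 51 without Con-FMT liver 2. Beside clock genes, the 5 largest increases held Thrsp, a lipogenic gene (114, 33.5 and 121 RPKM in Con-FMT, 355, 635 and 588 RPKM in A10-FMT, 2.70 log2 units, adjusted p = 0.0098), and Upp2, a uridine phosphorylase (60.6, 26.9 and 44.1 RPKM in Con-FMT, 301, 208 and 109 RPKM in A10-FMT, 2.16, adjusted p = 0.0031). Among the largest decreases were those of Elovl3, a fatty acid elongase (129.9, 114 and 221 RPKM in Con-FMT, 20.96, 16.8 and 29.1 RPKM in A10-FMT, -2.72, adjusted p = 0.00015), Arntl, Cdkn1a and the tubulin Tubb2a (-1.98, adjusted p = 0.043). None of Thrsp, Upp2 and Elovl3 was near a call between Con-FMT and HFD, where their adjusted p were 0.99, 1.00 and 0.83. Fgf21 fell from 5.11, 7.82 and 3.22 RPKM in Con-FMT to 1.08, 1.15 and 1.37 RPKM in A10-FMT (-1.47, adjusted p = 0.0055). Elovl3, Upp2 and Fgf21 passed without each of the 6 livers in turn, but Tubb2a did not without 5 of them, nor Thrsp without A10-FMT liver 2 or Con-FMT liver 2. When the fit held these groups only, Elovl3 kept its call, while Upp2, Fgf21, Thrsp and Tubb2a lost theirs (adjusted p of 0.15 for Upp2 and 0.10 for Fgf21).

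Against the regular diet, Con-FMT livers differed in 538 genes, 395 higher (3.76%) and 143 lower (1.36%), a contrast in which diet and transplant change together. The count was 76 without Con liver 3 and AOS liver 3, 141 without Con liver 1, 157 without Con liver 3, and 238, 235 and 352 without Con-FMT livers 1, 2 and 3. HFD against Con, which shares the Con livers, called 31 higher (0.295%) and 9 lower (0.0857%), but 0 in either direction in limma without Con liver 3 and AOS liver 3, where 835 were higher and 241 lower at an unadjusted p under 0.05. Of the 38 PPAR alpha targets 22 were called higher in Con-FMT than in Con and 0 lower, and 5 and 0 in HFD against Con, with medians of 0.53 and 0.33. Without Con liver 3 and AOS liver 3, limma called 9 of these targets higher in Con-FMT and 0 in HFD. At an unadjusted p under 0.05, 26 and 18 were higher, and 1 and 0 lower. Among all genes in that fit, 60 were called higher in Con-FMT than in Con and 16 lower. At that unadjusted p, 1229 of all genes were higher in Con-FMT and 396 lower, beside the 835 and 241 of HFD against Con. Cyp4a14 was at 0.2, 0.57 and 0.55 RPKM in Con (2.99 in Con-FMT, adjusted p = 0.036, not passed without 5 of the 6 livers), Cpt1a at 39.9, 42.9 and 40.5 RPKM (0.92, adjusted p = 0.0016) and Slc27a2 at 237, 248 and 248 RPKM (1.02, adjusted p = 0.00039). The largest decreases were in Saa2 (-5.78, adjusted p = 0.0019), Lcn2 (-4.47, adjusted p = 0.011) and Saa1 (-4.29, adjusted p = 0.010), acute phase genes that were uneven in Con, with 7018, 300 and 3826 RPKM of Saa2 against 33.3, 44.04 and 30.7 RPKM in Con-FMT. Lcn2 and Saa1 lost the call without Con liver 1 or 3, while Saa2, Cpt1a and Slc27a2 kept theirs without each of the 6 livers in turn.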

How the data were processed

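RNA of 18 mouse livers, 3 in each of 6 groups, was sequenced, and the authors deposited 1 table of RPKM per gene and liver, rounded to 2 decimals. Per the submitters' notes reads were mapped to mm10 with Bowtie 0.12.2. The study's methods name another aligner of short reads and report all hits of a read, so that members of near-identical gene families are uncertain. The authors' test on read counts was not run, since counts were not analysed here. Levels were taken as log2(RPKM + 1) for genes reaching 1 RPKM in 3 or more livers, and limma 3.58.1 (R 4.3.3) was fitted to all 18 livers with 1 mean for each group, empirical Bayes moderation with a trend and Benjamini-Hochberg adjustment over the 10507 genes. An adjusted p under 0.05 was called. The pseudocount of 1 understates the change of low genes.

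Members and lists were chosen with earlier results of these data known. There were 37 lists, with 887 of 1004 genes tested. Genes were named if called in Con-FMT against HFD, if among the 10 largest differences in either direction with an unadjusted p under 0.05, no overlap and a mean of at least 5 RPKM in either group, if among the 3 smallest p of a list, if on a fixed list, if among the 10 largest SD of either group, if among the 5 largest called differences in either direction of the other contrasts, or if called with a liver left out or with only the groups compared. Angptl4, Bhlhe40, Bhlhe41, Clock, Cry1, Cry2, Cxcl9, Cyp26b1, Hlf, Irf7, Krt18, Myh9, Per3, Ppara, Rara, Rarb, Rarg, Srf and Wee1 were named after their values were seen.

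On simulated data for Con-FMT against HFD over 10507 genes the fit called 100 of 100 genes changed by 2 log2 units and 96 of 100 changed by 1, with 6 unchanged genes called, and 0 genes where none was changed. The simulated noise was normal and independent at each gene's own spread, and changes were placed only in genes of higher mean level. The shares called therefore do not give the power of the real comparison or of genes of low level. Alternatives were another pseudocount, no filter, library medians set equal, the groups compared alone, the replicate number as a block, sample quality weights, the fold and FDR rule of the authors, and leaving out livers. The correlation of same-numbered livers' deviations lay between -0.04 and 0.07, and the labels do not pair them. Promoter windows were read from RefSeq. Counts of list members without single livers, and of HFD against Con without Con liver 3 and AOS liver 3, were added after seeing the data. Some genes that the rule named are not reported here.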

Additional observations from a re-analysis of the deposited data

Results flagged for a closer look

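The direct test of A10-FMT against Con-FMT called a difference between the transplants (limma, adjusted p under 0.05) for 20 genes named above, out of 177 among all genes. Higher in A10-FMT, in log2 units, were Thrsp (2.70), Dbp (2.68), Ciart (2.65), Usp2 (2.37), Upp2 (2.16), Per3 (1.59), Wee1 (1.57) and Tef (1.44), of which all but Thrsp and Upp2 are clock genes. Smaller increases were those of Coq10b (0.95), Abcg5 (0.57), Nr1h4 (0.49) and Cyp1a2 (0.46). Lower in A10-FMT were Elovl3 (-2.72), Arntl (-2.20), Cdkn1a (-2.13), Tubb2a (-1.98), Fgf21 (-1.47), Nfil3 (-1.03), Npas2 (-1.02) and Clock (-0.91). In 12 of the 20 the call held with each of the 6 livers left out in turn, and the direction held for all 20 in the 10 refits. With only both transplant groups in the fit 18 of the 20 lost the call, and 2, Ciart and Elovl3, held it in every refit. Those that lost the call without at least 1 liver were Dbp, Tef, Thrsp, Tubb2a, Coq10b, Abcg5, Nr1h4 and Cyp1a2. For Cyp1a2, at 258, 208 and 253 RPKM in Con-FMT and 322, 325 and 339 RPKM in A10-FMT, the A10-FMT livers lay above Con-FMT and beside HFD at 262, 321 and 322 RPKM. No explanation of these differences was tested.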

How the results depend on the processing

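The 1 call between Con-FMT and HFD, Ablim3, held in every refit at the adjusted p threshold, whereas 0 genes passed the authors' rule of an FDR no higher than 0.001 with a change of 1 log2 unit or more. The number of genes called was 2 with a pseudocount of 0.1, with no filter on low values, with only the groups compared, with the replicate block and with sample quality weights, and 1 to 13 with 1 liver left out, 13 without HFD liver 1 and 2 without Con-FMT liver 2. A10-FMT against Con-FMT gave 100 genes with no filter, 4 with only the groups compared, 82 without Con liver 3 and AOS liver 3, 298 with weights, 10 under the authors' rule and 51 to 564 with 1 liver left out. Con-FMT against Con gave 224 with only the groups compared, 76 without Con liver 3 and AOS liver 3, 2872 with weights, 3 under the authors' rule and 141 to 698 with 1 liver left out. The estimate of the weights did not converge and gave Con liver 3 a weight of 26.3. The replicate block gave 168 and 497 genes in these contrasts, and since the labels do not pair the livers, its added call of Dbp is no more than a hint. The cause of the changes in count was not tested.

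Of 131 genes named, 109 kept the sign of the Con-FMT minus HFD difference in all 11 alternatives and 22 did not. Their log2 fold changes with 1 liver left out ran for Bhlhe41 from -0.014 to 0.23, Cyp26b1 from -0.92 to 0.028, Cyp4a10 from -1.51 to 0.020, Cyp4a14 from -1.04 to 0.59, Cyp7a1 from -0.92 to 0.49, Egr1 from -2.20 to 0.30, Fasn from -0.39 to 0.18, Fgf21 from -0.066 to 0.50, Fos from -1.35 to 1.21, G6pc from -0.28 to 0.40, Gstp3 from -0.18 to 1.97, Hbb-bs from -0.57 to 2.06, Lcn2 from -0.52 to 0.73, Mup14 from -1.75 to 0.48, Nr0b2 from -0.38 to 0.031, Rarb from -0.080 to 0.15, Saa1 from -0.38 to 0.54, Saa2 from -0.41 to 0.40, Scd1 from -1.35 to 0.48, Thrsp from -0.38 to 0.53, Upp2 from -0.28 to 0.29 and Wee1 from -0.030 to 0.25. With a pseudocount of 0.1 Lcn2 also turned, to 0.010. The medians of 37 lists moved by less than the SD between livers in all but 4 of 296 refits. With HFD liver 1 left out the lists of conjugation, cytoskeleton, ribosomal, proteasome and cell cycle genes, among others, had more than 1.5 times as many members at an unadjusted p under 0.05. The counts of all genes also rose, from 408 higher and 289 lower to 466 higher and 686 lower, so that part of this rise was general. Depth is unknown, so that low values carry a counting error that could not be given.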

Other observations

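Further members of the cell-type, acute phase and heat shock lists gave small differences or overlapping groups, none of them past the adjusted test. Stab2, a scavenger receptor of liver sinusoidal endothelium, had 5.99, 4.05 and 4.61 RPKM in HFD and 7.44, 7.52 and 5.49 RPKM in Con-FMT (0.41 ± 0.13 SE, limma adjusted p = 0.59), with an overlap. Clec4g, a lectin of the same cells, had 22.97, 24.1 and 21.9 RPKM against 27.3, 24.6 and 27.98 RPKM, which did not overlap. The contractile genes Tagln and Acta2 lay lower, Tagln at 2.17, 4.78 and 3.66 RPKM against 2.17, 2.16 and 1.68 RPKM and Acta2 at 0.62, 3.74 and 1.67 RPKM against 0.61, 1.12 and 0.69 RPKM, with HFD liver 1 at the level of Con-FMT for both. Hnf4a, a factor of hepatocyte identity, had 117, 122 and 130.1 RPKM against 113, 96.2 and 109 RPKM and Apoh, a plasma apolipoprotein, 1902, 1827 and 1552 RPKM against 1950.5, 2130.2 and 2117 RPKM. Neither overlapped, and they differed in opposite directions. The haptoglobin gene Hp was higher in every Con-FMT liver, at 2021, 2317 and 2094 RPKM against 1584, 1637 and 1436 RPKM in HFD, whereas the orosomucoid gene Orm1 had 597, 375 and 599.9 RPKM against 590.2, 1140.5 and 677 RPKM.

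The inducible heat shock gene Hspa1a had 2.25, 13.2 and 22.1 RPKM in HFD and 23.3, 37.99 and 18.7 RPKM in Con-FMT, and its co-chaperone Dnajb1 7.51, 13.2 and 23.4 RPKM against 15.8, 51 and 20.5 RPKM. In both genes Con-FMT liver 2 was the highest and HFD liver 1 the lowest of the 6, and the groups overlapped. Cyp2e1, a pericentral P450 that metabolises alcohol, had 3364, 3169 and 3044 RPKM in HFD, 4325, 3672 and 3634 RPKM in Con-FMT, 5354, 5937 and 4343 RPKM in A10-FMT and 1755, 2572 and 2221 RPKM in Con. Con-FMT did not overlap HFD (0.28 ± 0.14 SE, adjusted p = 0.74) and was called higher than Con (0.84, adjusted p = 0.0039, and 0.0503 when the fit held these groups only, which lost the call). Mfsd2a, a transporter of lysophospholipids, had 3.17, 6.22 and 5.05 RPKM in HFD, 14.3, 8.41 and 19.8 RPKM in Con-FMT and 0.89, 2.36 and 1.28 RPKM in Con, and was called higher in Con-FMT than in Con (2.56, adjusted p = 0.032), a call that did not hold without Con-FMT liver 1, 2 or 3, without Con liver 1 or 3, or without Con liver 3 and AOS liver 3 (adjusted p of up to 0.14). Ceacam2, a cell adhesion gene, was near 0 in some livers of both groups and high in others, at 13.9, 0.19 and 0.11 RPKM in HFD and 5.96, 16.7 and 0.64 RPKM in Con-FMT. Its 2 lowest livers were HFD livers 2 and 3, and Con livers were alike at 5.68, 5.36 and 5.48 RPKM.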
